A study of Mus musculus with 20 samples.

Results

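The comparison set tumors of mice that carry a MYCN transgene and lack Mdk against ganglia of wild-type mice, to see which parts of the tumor expression program were present when midkine was absent. It used the 2 arrays titled as homozygous Mdk knockout and the 4 arrays titled as wild-type ganglion, 6 of the 20 arrays of the study, and all of them entered the comparison. The Mdk knockout tumors came from mice homozygous for the transgene (genotype MYCN Tg homozygote + Mdk KO, background mixed 129+Ter/SvJcl). The 4 tumors of mice homozygous for the same transgene with Mdk left intact (MYCN Tg homozygote, the same mixed background) served as a second comparison group and are called homozygous tumors. The wild-type ganglia carried neither the transgene nor the knockout, and their background was given as 129+Ter/SvJcl without the word mixed, so background and genotype cannot be told apart between tumors and ganglia. The labels give no age, sex, ganglion site or promoter of the transgene, and they do not say whether arrays of a group came from separate animals, so a p-value here speaks for these arrays alone and part of their spread may be technical. The RNA input was 40 ng, amplified in 2 cycles into labelled cRNA for Affymetrix Mouse Genome 430 2.0 arrays, whose probe sets give an intensity without a unit.

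Sympathetic ganglia hold the cell bodies of noradrenergic neurons, wrapped by satellite glia and embedded in connective tissue and vessels. During development their neurons arise from the neural crest through dividing sympathoblasts, and neuroblastoma is thought to arise in that lineage. MYCN is a transcription factor that drives growth and division in those cells. Midkine, the product of Mdk, is a secreted heparin-binding growth factor of the embryo and of many tumors, including neuroblastoma. Its one close relative is pleiotrophin, the product of Ptn, and receptors proposed for the pair include Alk, Ptprz1, Lrp1, Notch2, Ltk, syndecans, nucleolin and integrins.

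The trimmed mean intensity of every array was 100, and the medians of the 6 compared arrays spanned 0.19 on the log2 scale. Shortened RNA or amplified copies raise the ratio of 3' over 5' signal of beta-actin, which was 3.28 and 2.56 in the Mdk knockout tumors, against 4.36, 7.14, 6.88 and 9.14 in the wild-type ganglia, and the 2 groups did not overlap. The same ratio of Gapdh was 4.49 and 3.54 in the knockout tumors, against 3.24, 4.13, 2.56 and 3.75 in the ganglia, with overlap, so the 2 controls ordered the groups differently. Their part in the results was not tested. The wild-type ganglia were not uniform: 2738 of the 15132 genes tested differed by more than 1 log2 unit between ganglia 1 and 2 and ganglia 3 and 4. Xist, which is transcribed from the inactive X chromosome of females, read 2215 and 17 in the Mdk knockout tumors, against 2411, 2481, 44 and 30.7 in wild-type ganglia, so both sexes appeared in both groups. Acta1, which encodes skeletal muscle actin, read 27.8 and 1052 in the Mdk knockout tumors and 1042, 529, 16 and 7.1 in the ganglia, so tumor 2 and ganglia 1 and 2 carried a muscle signal that tumor 1 and ganglia 3 and 4 hardly had. Among the defining markers of sympathetic neurons, Th, Dbh and Hand2 were read in every tumor and ganglion.

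Mdk, the targeted gene, checks the labels: its intensity was 42.6 and 35.5 in the Mdk knockout tumors, against 85.7, 97.7, 54.1 and 43 in the wild-type ganglia. Both knockout values lay below all 4 ganglia, although the nearest ganglion was only slightly higher. The log2 fold change was -0.60 (SE 0.29), which did not pass (adjusted p = 0.11). The call turned on the ganglia: with ganglia 1 and 2 alone the log2 fold change was -0.97 (adjusted p = 0.011), without ganglion 4 it was -0.76 (adjusted p = 0.041), and after quantile normalization it was -0.75 (adjusted p = 0.046). Homozygous tumors read 297, 268, 269 and 271, and the Mdk knockout tumors were log2 -2.41 with a 95% interval of -3.01 to -1.81 against them (adjusted p = 0.0017). Whether the probe set covers the removed exons is unknown, so a residual reading is not taken as transcript.

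Of the 18 genes of midkine, pleiotrophin and their proposed receptors and coreceptors, 4 rose and 10 fell in Mdk knockout tumors against wild-type ganglia, where 19.2% of all genes tested rose and 20.4% fell. Ptn, the one relative of midkine, read 127 and 132 in the Mdk knockout tumors, against 678, 549, 2297 and 1974 in the ganglia. All 4 ganglia exceeded both tumors, and ganglia 3 and 4 were the highest, and Ptn fell (-2.998, SE 0.46, adjusted p = 5.4e-05). Ptn was also low in homozygous tumors (164, 194, 196 and 163), and the difference between the 2 kinds of tumor was log2 -0.43 with a 95% interval of -1.39 to 0.54, which did not pass. Ptprz1, a receptor tyrosine phosphatase that binds both factors, read 61.2 and 95 in the knockout tumors, against 302, 228, 583 and 499 in the ganglia (-2.09, SE 0.33, adjusted p = 7.8e-05). Sdc2, a heparan sulfate proteoglycan of the cell surface, fell as well (-2.89, SE 0.30, adjusted p = 8.6e-07), and so did Nrp1, a coreceptor of semaphorins and VEGF (-2.88, SE 0.45, adjusted p = 6.5e-05), and Notch2 (-2.10, SE 0.60, adjusted p = 0.0096). Notch2 read 81.9 and 85.7 in the knockout tumors and 169, 195, 924 and 911 in the ganglia, so the size of its change rested mainly on ganglia 3 and 4.

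The 4 that rose were Alk, Ncl, Sdc1 and Gpc2. Alk, a receptor tyrosine kinase that is mutated in part of the neuroblastomas, read 227 and 222 in the Mdk knockout tumors, against 55.7, 24.5, 25.9 and 14.1 in the ganglia, with no overlap (2.46, SE 0.28, adjusted p = 2.4e-06). In homozygous tumors it read 304, 289, 225 and 203, a span that held both knockout values. Sdc1, another syndecan, read 331 and 166 in the knockout tumors and 77.5, 72.5, 31.7 and 20.3 in the ganglia (2.03, SE 0.36, adjusted p = 0.00022). Ncl, the nucleolar protein nucleolin, is described with ribosome biogenesis. Lrp1, an endocytic receptor, and Sdc3 overlapped between the groups, at log2 0.12 (adjusted p = 0.84) and 0.18 (adjusted p = 0.67). Leaving out Mdk knockout tumor 1, which leaves a single knockout array, reduced the members that fell to 6.

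Over all 15132 genes, 5990 (39.6%) differed between Mdk knockout tumors and wild-type ganglia at an adjusted p under 0.05, with 2907 higher and 3083 lower. Of these, 1867 rose and 1844 fell by more than 2-fold, and 114 rose and 110 fell by more than 8-fold, while the median log2 fold change of all genes was -0.11. For homozygous tumors against the same 4 ganglia the count was 7533 (49.8%, with 23.1% higher and 26.6% lower), in a group with 4 arrays in place of 2. Since both comparisons share the ganglion arrays, their values are given side by side and their likeness is not a result. Lists without a member that passed in a direction are described with that count of 0 from limma: at an unadjusted p under 0.05, which 47.8% of all genes had, the replication, mitosis and ribosome biogenesis lists had 0 lower members, the antigen presentation, lymphocyte and sterol lists 0 higher members, and the endothelium list 1 higher member. The count for the knockout tumors was 3649 with only the 6 compared arrays in the fit and 3394 without knockout tumor 1.

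The 12 largest increases included genes of neuroendocrine and neuronal development and of the cell cycle. Insm1, a zinc-finger factor of dividing neuroendocrine and sympathoadrenal progenitors, read 1144 and 1078 in Mdk knockout tumors, against 4.28, 5.26, 9.73 and 0.889 in wild-type ganglia. The ganglion values lay below the 16 that was added before taking logarithms, so its log2 fold change of 5.76, SE 0.25, adjusted p = 8.5e-11 understates the ratio. Agtr2, the type 2 receptor of angiotensin, read 2532 and 2200.0 in the knockout tumors and 71.6, 121, 36.4 and 44.4 in the ganglia (4.92, SE 0.29, adjusted p = 2.6e-09). Tox3, an HMG-box factor, and Meis2, a homeobox factor, rose by 4.66 and 4.65 on the log2 scale. Dlk1, an imprinted transmembrane relative of the Notch ligands, read 1327 and 861 in the knockout tumors, against 56.4, 65, 16.2 and 18.4 in the ganglia (4.43, SE 0.33, adjusted p = 2.1e-08). Prox1, a homeobox factor that acts in neural progenitors, lymphatic vessels and other tissues, read 629 and 723 in the knockout tumors and 18.8, 9.45, 22.3 and 23.1 in the ganglia, with no overlap (4.35, SE 0.26, adjusted p = 2.6e-09). The others were Top2a, Kif2c, Cdt1, Bub1b, Nek2 and Ncapd2, which act in replication, chromosome condensation or mitosis, between log2 4.35 and 4.47.

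The 12 largest decreases were led by Prr15, with 12 and 22 in Mdk knockout tumors, against 916, 752, 2864 and 2729.7 in wild-type ganglia (-5.56, SE 0.45, adjusted p = 3.6e-08). Tspan8, a tetraspanin, and Olfr78, an olfactory receptor that is also transcribed in oxygen-sensing and vascular cells, fell by 5.38 and 5.32 on the log2 scale. Npy, the neuropeptide that sympathetic neurons release with noradrenaline, read 93.2 and 150.2 in the knockout tumors and 3908, 3644, 4214 and 3059 in the ganglia (-4.78, SE 0.54, adjusted p = 2e-06). Sncg, the gamma-synuclein of peripheral neurons, read 36.5 and 108 in the knockout tumors, against 2547, 2454, 2192 and 1529.8 in the ganglia (-4.74, SE 0.40, adjusted p = 7.1e-08). Both genes were high in all 4 ganglia, and knockout tumor 2 read higher than tumor 1 for each. Mal, a proteolipid of myelinating glia, fell by 4.31, and Cntn3, Dner, Grm7, Rit2, St6galnac5 and Cmbl made up the remainder. Dner, a neuronal transmembrane ligand of Notch, read 92.4 and 225 in the knockout tumors and 2154, 1829, 7264 and 5285 in the ganglia, so the tumors stayed below every ganglion and ganglia 3 and 4 stood highest. Rit2, a small GTPase of neurons, read 45.6 and 137 in the knockout tumors and 1497, 841, 3593 and 3014 in the ganglia and had the same order of arrays.

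**Figure D1:**
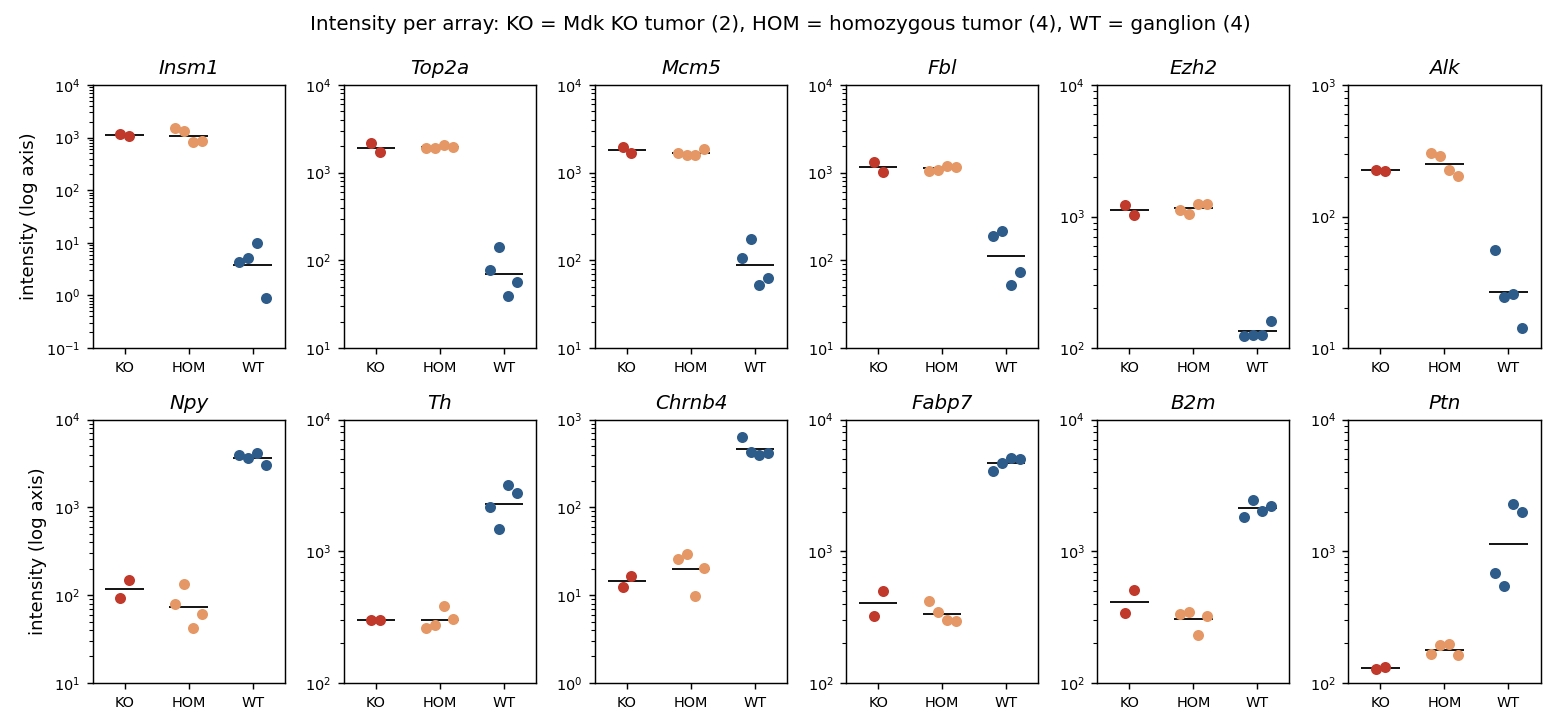
Intensity on a log axis of 12 genes in the Mdk knockout tumors (KO, 2 arrays), homozygous tumors (HOM, 4 arrays) and wild-type ganglia (WT, 4 arrays), each point 1 array and each line the geometric mean. Insm1, Top2a, Mcm5, Fbl, Ezh2 and Alk were higher in both KO arrays than in all 4 WT arrays, and Npy, Th, Chrnb4, Fabp7, B2m and Ptn were lower; levels of different genes are not comparable.

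Nearly the whole DNA replication list was higher in the Mdk knockout tumors than in the ganglia. Of its 25 members tested, 24 rose in Mdk knockout tumors against wild-type ganglia and none fell, with a median log2 fold change of 2.73 (24 rose in homozygous tumors, median 2.59). Mcm5, a subunit of the replicative helicase, read 1954 and 1674 in the knockout tumors, against 106, 176, 52.8 and 63.5 in the ganglia (4.10, SE 0.31, adjusted p = 2.2e-08). Rrm2, the small subunit of ribonucleotide reductase, read 2979 and 2466 in the knockout tumors and 90.1, 236, 98.3 and 109 in the ganglia (4.29, SE 0.27, adjusted p = 3.7e-09). Both tumors exceeded all 4 ganglia by a wide margin for either gene. Cdt1, which loads the helicase at origins, rose by 4.41, Mcm6 by 3.96 and Rfc5, a clamp loader subunit, by 2.79. The smallest passing change was that of Orc1, a subunit of the origin recognition complex, with 50.2 and 71.4 in the knockout tumors and 19.4, 34.9, 23.7 and 40.2 in the ganglia (0.76, SE 0.29, adjusted p = 0.046). Fen1, the flap endonuclease, was the member that did not pass: it read 1546 and 2335 in the knockout tumors and 5417, 6624, 560.1 and 672 in the ganglia, so ganglia 1 and 2 were the highest of the 6 arrays and ganglia 3 and 4 the lowest.

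All 29 tested members of the list of mitosis and its regulators rose in Mdk knockout tumors, with a median of 3.29 (29 rose in homozygous tumors, median 3.30). Cdc20, the activator of the anaphase-promoting complex, read 2815 and 2212 in the knockout tumors, against 139.9, 171, 85.2 and 68.7 in the ganglia (4.32, SE 0.26, adjusted p = 2.6e-09). Top2a, the topoisomerase that untangles chromosomes, read 2170.2 and 1717 in the knockout tumors and 77.6, 143, 39 and 56.8 in the ganglia (4.47, SE 0.30, adjusted p = 7e-09). Neither gene overlapped between the groups, and ganglion 2 was the highest ganglion for each. Kif2c, a kinesin that depolymerises microtubules at kinetochores, rose by 4.44, and the checkpoint kinases Bub1 and Bub1b rose by 4.11 and 4.40. Mki67, the antigen that marks cycling cells, read 2444 and 2509.9 in the knockout tumors and 130.1, 472, 181 and 335 in the ganglia (3.23, SE 0.33, adjusted p = 6.5e-07). The transcription factors of this program changed least within the list: Foxm1 read 83.8 and 76.1 in the knockout tumors and 31.8, 53.7, 41.4 and 12.4 in the ganglia (0.99, SE 0.29, adjusted p = 0.01), and Mybl2 read 47.7 and 29.5 in the knockout tumors and 8.15, 9.75, 7.45 and 23.8 in the ganglia (0.96, SE 0.24, adjusted p = 0.0036).

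Because these genes moved together, the 250 bases before their start sites were examined in the RefSeq promoters of build GRCm38.p6. Of the 29 members, 23 matched, with 24 promoters. The cell cycle genes homology region (CHR, letters TTTGAA, read on both strands), a site bound by the complexes that time late cell cycle transcription, was found in 9 of the 24 promoters (37.5%), against 11% of the 15433 promoters of all genes tested and 16% of all 32851 promoters of the table. The CCAAT box (letters CCAAT, both strands), which can share at most 1 base with a CHR match, was found in 17 (70.8%), against 34.6% and 33.8%. Among the members of the DNA replication list that rose, 2 of 24 promoters held the CHR (8.33%) and 15 held the CCAAT box (62.5%). Among those of ribosome biogenesis, 1 of 26 held the CHR (3.85%) and 8 the CCAAT box (30.8%). For members that fell, the CHR was in 1 of 13 noradrenergic promoters (7.69%) and 2 of 10 differentiated neuron promoters (20%). The CCAAT box was in 5 (38.5%) and 3 (30%) of them. The canonical E-box of MYC proteins (letters CACGTG, which read the same on both strands) was found in 1 of 26 ribosome biogenesis promoters (3.85%), against 7.74% of the promoters of all genes tested, and in 1 of 24 for mitosis. These counts describe letters in a window and were not tested. The 4 members with the smallest p whose promoter held the CHR are shown here, since their promoters carry the motif that was more frequent in the list, 5′ to 3′ along the gene's strand with CHR matches in capitals. They are Cdc20 (chr4:118437344-118437593, minus strand), Top2a (chr11:99024190-99024439, minus strand), Kif2c (chr4:117178773-117179022, minus strand) and Kif11 (chr19:37376132-37376381, plus strand).
Cdc20: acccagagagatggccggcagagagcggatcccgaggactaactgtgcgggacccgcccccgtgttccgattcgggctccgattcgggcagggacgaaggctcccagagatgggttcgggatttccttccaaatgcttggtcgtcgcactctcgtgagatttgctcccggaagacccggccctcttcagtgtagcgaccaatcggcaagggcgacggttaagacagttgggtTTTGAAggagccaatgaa
Top2a: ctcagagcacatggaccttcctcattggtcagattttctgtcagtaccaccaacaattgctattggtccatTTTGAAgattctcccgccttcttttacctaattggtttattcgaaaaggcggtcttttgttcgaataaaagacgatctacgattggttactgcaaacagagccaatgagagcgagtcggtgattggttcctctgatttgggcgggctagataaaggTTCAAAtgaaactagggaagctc
Kif2c: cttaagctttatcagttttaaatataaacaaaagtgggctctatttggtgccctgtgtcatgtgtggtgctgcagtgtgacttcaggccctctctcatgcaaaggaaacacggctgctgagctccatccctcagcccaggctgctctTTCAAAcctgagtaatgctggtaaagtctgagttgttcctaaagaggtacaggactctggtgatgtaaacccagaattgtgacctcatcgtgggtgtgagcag
Kif11: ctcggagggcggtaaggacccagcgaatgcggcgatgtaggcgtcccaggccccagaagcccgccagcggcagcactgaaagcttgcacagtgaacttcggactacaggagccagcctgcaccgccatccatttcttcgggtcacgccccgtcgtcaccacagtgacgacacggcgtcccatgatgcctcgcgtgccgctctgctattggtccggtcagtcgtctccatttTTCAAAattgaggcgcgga
The capitals start 18 bases before the start site in Cdc20 and 19 in Kif11. In Top2a they start 23 and 179 bases before it, with the nearer match read on the opposite strand, and in Kif2c 103 bases before it. The matches of Kif2c and Kif11 were also read on the opposite strand. Top2a also held 6 CCAAT boxes, Cdc20 2, Kif11 1 and Kif2c none. Kif11, the motor that separates the spindle poles, read 346 and 309 in Mdk knockout tumors, against 22.9, 41.2, 3.4 and 12.6 in wild-type ganglia (3.36, SE 0.31, adjusted p = 1.7e-07).

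Ribosome biogenesis genes, a classical target group of MYC proteins, were higher as well. Of 35 members tested, 30 rose in Mdk knockout tumors and none fell, with a median of 1.33 (31 rose and 1 fell in homozygous tumors, median 1.39). Fbl, the methyltransferase of the nucleolar box C/D particles, read 1314 and 1018 in the knockout tumors, against 189, 218, 52.2 and 73.5 in the ganglia (3.16, SE 0.43, adjusted p = 1.4e-05). Ncl read 2303 and 1873 in the knockout tumors and 637, 652, 135 and 67.5 in the ganglia (2.94, SE 0.60, adjusted p = 0.0008). For both, ganglia 1 and 2 lay between the tumors and ganglia 3 and 4. Nop58, a core protein of the same particles, and Ppan, which matures the large subunit, rose by 2.28 and 2.44 on the log2 scale. Without knockout tumor 1 the members that rose numbered 18. The 5 that did not pass were Nop10, Wdr12, Rrp12, Noc2l and Wdr74, between log2 -0.47 and 1.19.

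In the list of nucleotide, polyamine and one-carbon synthesis, 10 of 21 rose and 2 fell in Mdk knockout tumors (10 and 3 in homozygous tumors). Srm, spermidine synthase, read 1394 and 868 in the knockout tumors, against 253, 226, 112 and 153 in the ganglia (2.53, SE 0.40, adjusted p = 8.2e-05). Cad, which starts pyrimidine synthesis, rose by 2.48, Psat1 of serine synthesis by 1.95 and Shmt1, a folate enzyme, by 3.12. Odc1, the ornithine decarboxylase that is a textbook MYC target, did not pass, with 1461 and 1295 in the knockout tumors and 579.6, 619, 1181 and 1391 in the ganglia (log2 0.64, adjusted p = 0.077). The 2 that fell were Prps2 (-2.23) and Hprt (-1.29), of nucleotide supply and salvage.

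Of 25 Polycomb and DNA methylation genes, 12 rose and 1 fell in Mdk knockout tumors, with a median of 0.68 (13 and 1 in homozygous tumors, median 0.65). Ezh2, the histone methyltransferase of Polycomb complex 2, read 1234 and 1033 in the knockout tumors, against 124, 127, 127 and 162 in the ganglia (2.93, SE 0.18, adjusted p = 3.5e-09). Its paralog Ezh1, which prevails in cells that do not divide, was the member that fell, with 55.5 and 84.2 in the knockout tumors and 256, 199.9, 224 and 219.8 in the ganglia (-1.50, SE 0.22, adjusted p = 3e-05). Neither gene overlapped between the groups. Uhrf1 and Dnmt1, which together maintain DNA methylation after replication, rose by 3.40 and 2.35, and Bmi1 of Polycomb complex 1 rose by 2.25. Rbbp7 and the 3 Tet genes did not pass.

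The transcription factors of sympathoblasts split into genes that stayed near the ganglion level and genes that rose. Of 23 tested, 14 rose and 1 fell in Mdk knockout tumors, with a median of 1.34 (14 and 2 in homozygous tumors, median 1.44). Hand2, which specifies noradrenergic neurons, read 1682 and 1855 in the knockout tumors and 1843, 1308, 2563 and 2338 in the ganglia, and Isl1 read 2430.0 and 2675 in the knockout tumors and 1879, 1780.1, 2239 and 2973 in the ganglia. Both overlapped between the groups and did not pass (adjusted p = 0.64 and 0.51). Sox11, a factor of immature neurons, read 2013 and 1813 in the knockout tumors, against 206, 136, 161 and 152 in the ganglia (3.43, SE 0.19, adjusted p = 2.1e-09). Myt1, a zinc-finger factor of neurons, read 487 and 474 in the knockout tumors and 56.8, 46.6, 141 and 72.4 in the ganglia (2.48, SE 0.36, adjusted p = 3.5e-05), and Pbx3, a partner of Meis factors, rose by 2.33. Gata3 (1.36), Tfap2b (1.04) and Phox2a (1.31), all factors of noradrenergic specification, rose as well, although for Phox2a ganglion 1 lay above knockout tumor 2. St18 rose (2.10, SE 0.54, adjusted p = 0.0046) with unequal tumors, at 262 and 37, against 5.83, 12.2, 25 and 9.56 in the ganglia. Hand1 fell (-1.07, SE 0.25, adjusted p = 0.0026).

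Oncofetal and imprinted growth genes did not move as a group: 2 of 14 rose and 2 fell in Mdk knockout tumors. Both shares were below those of all genes tested, of which 19.2% rose and 20.4% fell. Besides Dlk1, Igf2bp3, an RNA-binding protein of embryos, rose (1.24, SE 0.36, adjusted p = 0.0098). Igf2 read 7.13 and 35.6 in the knockout tumors, against 399, 586, 52 and 114 in the ganglia (-2.65, SE 0.66, adjusted p = 0.0035). Peg3 read 1485 and 1441 in the knockout tumors and 2042, 1711, 6881 and 6645 in the ganglia (-1.27, SE 0.49, adjusted p = 0.047), so its fall rested mainly on ganglia 3 and 4, and the call was lost in 13 alternatives. Lin28b, an RNA-binding protein linked to neuroblastoma, read 11.1 and 19 in the knockout tumors and 5.94, 4.28, 14.9 and 10.9 in the ganglia and did not pass (adjusted p = 0.19).

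**Figure D2:**
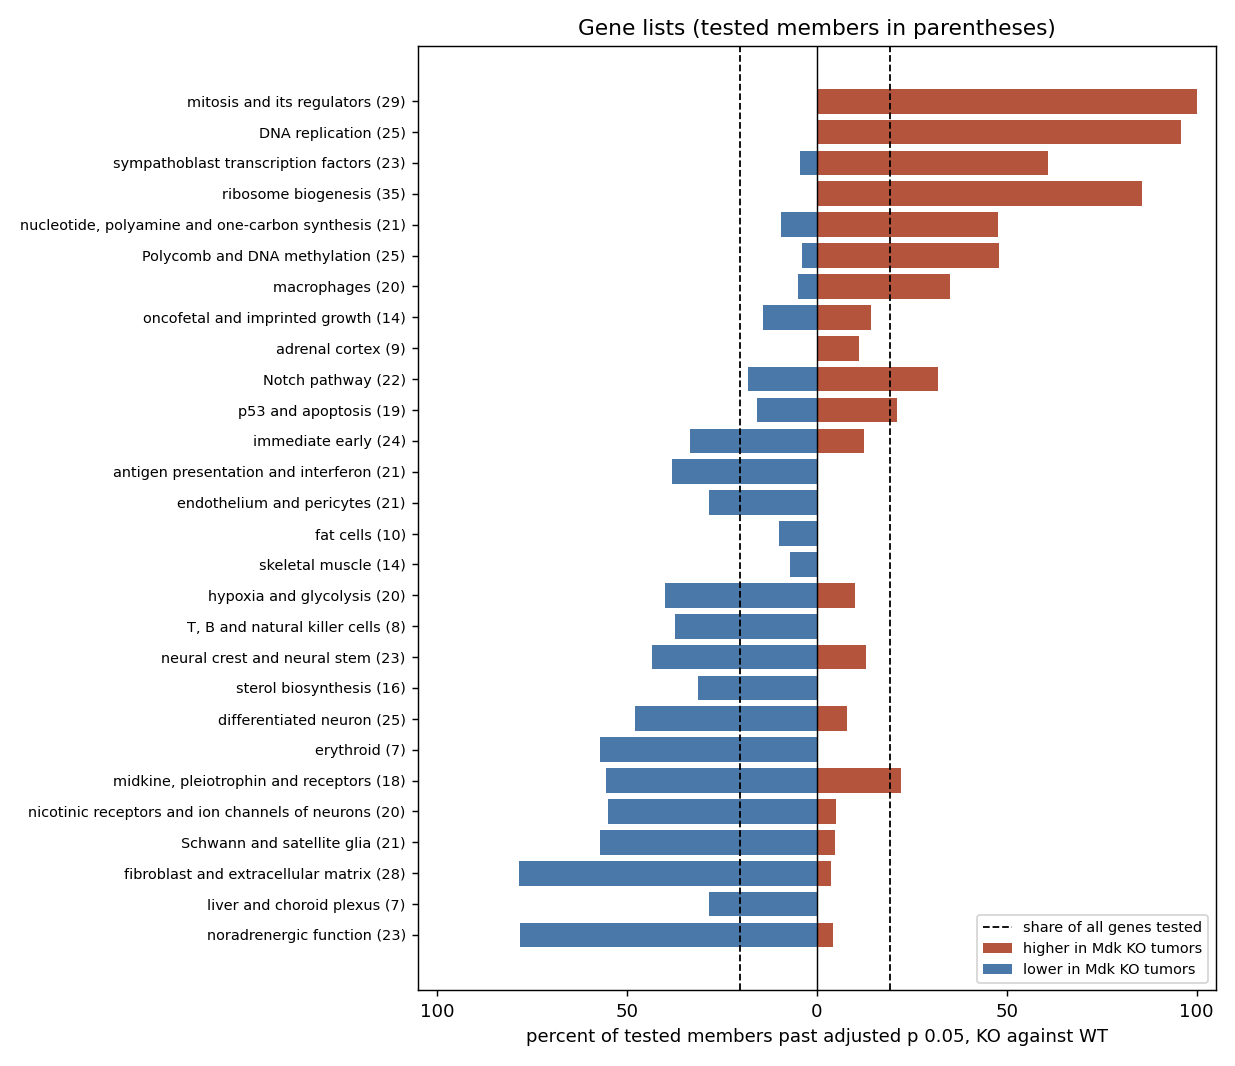
Percent of the tested members of 28 gene lists that were higher (right) or lower (left) in Mdk KO tumors than in WT ganglia at an adjusted p under 0.05, ordered by median change. Dashed lines mark the shares of all genes tested, 19.2% higher and 20.4% lower; mitosis reached 29 of 29 members higher and noradrenergic function 18 of 23 lower.

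Genes of noradrenergic function were lower in Mdk knockout tumors: 18 of 23 fell and 1 rose, with a median of -2.31 (18 and 1 in homozygous tumors, median -2.22). In bulk tissue, fewer cells of a type and less RNA per cell cannot be told apart. Th, tyrosine hydroxylase, the first enzyme of noradrenaline synthesis, read 303 and 298 in the knockout tumors, against 2165, 1472, 3193 and 2775 in the ganglia (-2.87, SE 0.59, adjusted p = 0.00079). Dbh, which makes noradrenaline from dopamine, read 282 and 451 in the knockout tumors and 2075, 1249, 2885 and 2621 in the ganglia (-2.51, SE 0.38, adjusted p = 5.1e-05). The 2 groups did not overlap for either enzyme. Slc6a2, the noradrenaline transporter, fell by 3.19, the vesicular transporter Slc18a2 by 2.38, and the oxidases Maoa and Maob by 2.76 and 3.04. Ret, the signalling receptor of GDNF family ligands, read 72.8 and 101 in the knockout tumors, against 1322, 964, 958 and 827 in the ganglia (-3.32, SE 0.46, adjusted p = 1.8e-05), and Ngfr, the low-affinity neurotrophin receptor, fell by 2.94. Ddc, the decarboxylase between Th and Dbh, changed less: it read 3754 and 3852 in the knockout tumors and 4741, 4086, 9469 and 7488 in the ganglia (-0.68, SE 0.25, adjusted p = 0.041), while a dimmer probe set of Ddc was higher in the tumors (log2 1.34).

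The member that rose was Chga, chromogranin A of dense-core vesicles, with 448 and 366 in Mdk knockout tumors, against 129, 97.8, 109.6 and 140.4 in wild-type ganglia (1.65, SE 0.37, adjusted p = 0.0016). Chgb, its relative, differed between the tumors, at 1730.4 and 391, against 1363, 1045, 1369.7 and 1317 in the ganglia, and did not pass (adjusted p = 0.25). Vip, a neuropeptide of cholinergic and some sympathetic neurons, read 117 and 375 in the knockout tumors and 2478, 3015, 21.1 and 42.5 in the ganglia, a split by ganglion pair that left it without a call (adjusted p = 0.73).

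Of 25 differentiated neuron genes, 12 fell and 2 rose in Mdk knockout tumors, with a median of -0.91 (13 and 2 in homozygous tumors, median -0.79). Prph, the intermediate filament of peripheral neurons, read 62.9 and 219.7 in the knockout tumors, against 3099, 2639.7, 1440.2 and 1757 in the ganglia (-3.98, SE 0.61, adjusted p = 5.2e-05). Syn2, a synaptic vesicle protein, fell by 3.85, Thy1 by 3.37 and Syt1, the calcium sensor of release, by 2.91. The 2 that rose were neurofilament genes: Nefm read 2113 and 2363 in the knockout tumors and 643, 358, 776 and 996 in the ganglia (1.76, SE 0.38, adjusted p = 0.0013), and Ina, internexin, rose by 1.17. Tubb3, the tubulin of neurons, read 739 and 671 in the knockout tumors and 692, 465, 726 and 341 in the ganglia, and Elavl4, an RNA-binding protein of neurons, read 864 and 823 in the knockout tumors and 659, 467, 2434 and 1868 in the ganglia. Neither passed (adjusted p = 0.41 and 0.56), and both overlapped between the groups.

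Among 20 nicotinic receptors and ion channels of neurons, 11 fell and 1 rose in Mdk knockout tumors, with a median of -1.10 (11 and 1 in homozygous tumors, median -0.80). Chrnb4, a subunit of the ganglionic acetylcholine receptor, read 12.5 and 16.6 in the knockout tumors, against 638, 427, 400.2 and 412 in the ganglia (-3.97, SE 0.30, adjusted p = 2e-08). Its partners Chrna3 and Chrna5 fell by 1.86 and 2.40, and Kcnq3, a subunit of the M-current channel, fell by 3.40. Cacna2d1, an auxiliary calcium channel subunit, was the member that rose (0.76, SE 0.27, adjusted p = 0.031). Chrna7 and Chrnb2 did not pass.

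Markers of Schwann and satellite glia were lower in Mdk knockout tumors, where 12 of 21 fell and 1 rose, with a median of -1.19 (13 and 1 in homozygous tumors, median -1.03). Their summed intensity was 5378 and 8013 in the knockout tumors, against 16756 to 20607 in the 4 ganglia. Fabp7, a lipid-binding protein of satellite glia, read 325 and 496 in the knockout tumors, against 4070.2, 4714, 5102 and 5031 in the ganglia (-3.50, SE 0.38, adjusted p = 1e-06). Sox10, the master factor of glia, read 27.6 and 44.6 in the knockout tumors and 304, 159.9, 200.2 and 220.0 in the ganglia (-2.17, SE 0.37, adjusted p = 0.00016). Pmp22 of myelin fell by 3.29 and Cdh19, a cadherin of Schwann precursors, fell by 3.31. Mbp was the member counted as higher, but its probe sets disagree: the brightest over all arrays gave log2 1.08, while 5 of the 7 others lay between -2.18 and -3.65 and the remaining ones at 0.17 and -0.43, so the direction of Mbp is uncertain.

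Of 23 neural crest and neural stem genes, 10 fell and 3 rose in Mdk knockout tumors (12 and 3 in homozygous tumors). All genes tested fell in 20.4% and rose in 19.2% of cases, so the share of this list that rose was below that of all genes. Sox2, a factor of neural stem cells and satellite glia, read 8.88 and 13.3 in the knockout tumors, against 100.2, 71.3, 195 and 138 in the ganglia (-2.32, SE 0.26, adjusted p = 2e-06). Prom1, a stem cell antigen, fell by 3.07, Ednrb, an endothelin receptor of crest cells, by 2.87, and the Id genes Id1, Id2, Id3 and Id4, inhibitors of differentiation factors, by 1.10, 1.54, 1.23 and 2.44. Kit (0.74), Msi1 (0.82) and Hes5 (1.09) rose, the last with unequal tumors at 26.9 and 72.8, against 15.9, 5.6, 19.4 and 12.9 in the ganglia. These calls were lost in 7, 9 and 6 alternatives, and Msi1 overlapped between the groups, with knockout tumor 2 at 91.5 and ganglion 3 at 95.6.

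Notch genes moved in both directions: of 22 tested, 7 rose and 4 fell in Mdk knockout tumors (6 and 5 in homozygous tumors). In the knockout tumors 19.2% of all genes tested rose and 20.4% fell, so the share of Notch genes that fell was near that of all genes. The ligands Dll1 and Jag2 rose: Dll1 read 92.3 and 119.7 in the knockout tumors, against 20.8, 24.3, 21.5 and 34.6 in the ganglia (1.56, SE 0.33, adjusted p = 0.0011), and Jag2 rose by 1.27. Rbpj, the DNA-binding effector, and its coactivator Maml1 rose by 1.03 and 1.03, and Hes6 rose by 1.18. Among the receptors Notch2 fell, while Notch1 (log2 -0.28) and Notch3 (log2 -0.01) did not pass. The targets Hey1 and Hey2 fell by 1.12 and 2.30, and Hes1 read 21.4 and 30.6 in the knockout tumors and 68, 90.5, 25.9 and 20.0003 in the ganglia without passing (adjusted p = 0.40). Hey2 read 22.6 and 45.1 in the knockout tumors and 197, 149, 277 and 303 in the ganglia, all of them above the tumors.

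Fibroblast and extracellular matrix genes were lower, with 22 of 28 down and 1 up in Mdk knockout tumors and a median of -1.63 (23 and 1 in homozygous tumors, median -1.61). Lum, the proteoglycan lumican, read 137 and 278 in the knockout tumors, against 2555, 3113, 1791 and 1799 in the ganglia (-3.42, SE 0.63, adjusted p = 0.00031). Col1a1, a chain of fibrillar collagen, read 120.0 and 181 in the knockout tumors and 440.0, 879.6, 1974 and 2159.7 in the ganglia (-2.82, SE 0.49, adjusted p = 0.00019). Both tumors lay below all 4 ganglia, and tumor 2 was the higher tumor for each. Pdgfra, the receptor that marks fibroblasts, fell by 2.43, and Dcn, decorin, by 2.28. Without knockout tumor 1 the members that fell numbered 9. Fbln1, a matrix glycoprotein, rose against its list by its brightest probe set, with 301 and 319 in the knockout tumors and 37.3, 30.9, 38.2 and 30.8 in the ganglia (2.70, SE 0.20, adjusted p = 1.5e-08), and in homozygous tumors it read 323, 312, 307 and 294. A second Fbln1 probe set was also higher in the knockout tumors (log2 1.65), and another, dim one was lower (log2 -0.50).

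Endothelium and pericyte markers fell in 6 of 21 cases and rose in none. Since 20.4% of all genes tested fell and 19.2% rose, the share of these markers that fell was only somewhat above that of all genes. Mcam, an adhesion molecule of vessels that Schwann cells also carry, fell by 1.96, and Cdh5, the cadherin of endothelium, read 30.6 and 29.1 in the knockout tumors, against 81.2, 124, 66.1 and 32.4 in the ganglia (-0.90, SE 0.32, adjusted p = 0.034). Kdr, a VEGF receptor, did not pass (log2 -0.40). Macrophage markers went the other way for several members, with 7 of 20 up and 1 down in Mdk knockout tumors (6 and 3 in homozygous tumors). Lyz2, the lysozyme of myeloid cells, read 1031 and 1678 in the knockout tumors, against 244, 297, 179 and 221 in the ganglia (2.43, SE 0.31, adjusted p = 6.5e-06). Cd68, a lysosomal protein, read 103 and 152 in the knockout tumors and 27.6, 18.2, 11.2 and 20.7 in the ganglia (2.02, SE 0.29, adjusted p = 3.2e-05), and the complement genes C1qa, C1qb and C1qc rose by 1.81, 1.42 and 1.70. Adgre1, the F4/80 antigen, fell (-1.66, SE 0.40, adjusted p = 0.0028), and Csf1r and Ptprc overlapped between the groups and did not pass.

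Genes of antigen presentation and interferon response fell in 8 of 21 cases and rose in none in Mdk knockout tumors (13 fell in homozygous tumors). Among all genes tested, 20.4% fell and 19.2% rose in the knockout tumors. B2m, beta-2 microglobulin, the shared small chain of class I antigen-presenting molecules, read 337 and 508 in the knockout tumors, against 1835, 2437, 2033 and 2222 in the ganglia (-2.31, SE 0.26, adjusted p = 2e-06). Ifi35 and Ifit1, both induced by interferon, fell by 2.59 and 1.92, and Tapbp, which loads peptides on class I, fell by 1.35. H2-Aa, a class II chain, read 475 and 515 in the knockout tumors, 243, 174, 198 and 273 in homozygous tumors and 1367, 1010.3, 589 and 761 in the ganglia. It passed narrowly against the ganglia (log2 -0.82, adjusted p = 0.0497). Of 8 tested markers of T, B and natural killer cells, 3 fell and none rose. The T cell genes Cd3d, Cd3e, Cd3g, Cd2 and Cd4 were below the filter and do not enter the count. Cd79a of B cells read 4.27 and 12.6 in the knockout tumors and 17.9, 20.7, 26.6 and 25.8 in the ganglia. The 3 calls were Cd79a, Cd79b and Ms4a1, which were lost in 8, 15 and 7 alternatives, and Ms4a1 overlapped between the groups, with 10.5 and 35.3 in the knockout tumors and 71.7, 54, 29 and 41.4 in the ganglia.

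Markers of tissues that a dissected sample could hold varied between arrays. Their counts are set beside all genes tested, of which 19.2% rose and 20.4% fell. For red cells, 4 of 7 members fell, with a summed intensity of 84.7 and 138 in the Mdk knockout tumors, against 506 to 3084 in the ganglia. Skeletal muscle markers summed to 135 and 5168 in the knockout tumors and to 10242, 7770, 502 and 475 in the ganglia, and 1 of 14 passed. Fat cell markers summed to 3798 and 12117 in the knockout tumors and to 12237, 23390, 5589 and 11934 in the ganglia, with 1 of 10 down. Liver and choroid plexus markers summed to 36 and 182 in the knockout tumors and to 4872, 1416, 176 and 122 in the ganglia, with 2 of 7 down. Adrenal cortex markers showed 1 of 9 up, and its defining genes Star, Cyp11a1 and Cyp11b1 read 1.2 to 23.3 in the knockout tumors and 2.14 to 46.6 in the ganglia. Without the 6 arrays of the 20 with Acta1 above 100, which leaves knockout tumor 1 and ganglia 3 and 4 in this comparison, the count of changed genes was 5839.

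**Figure D3:**
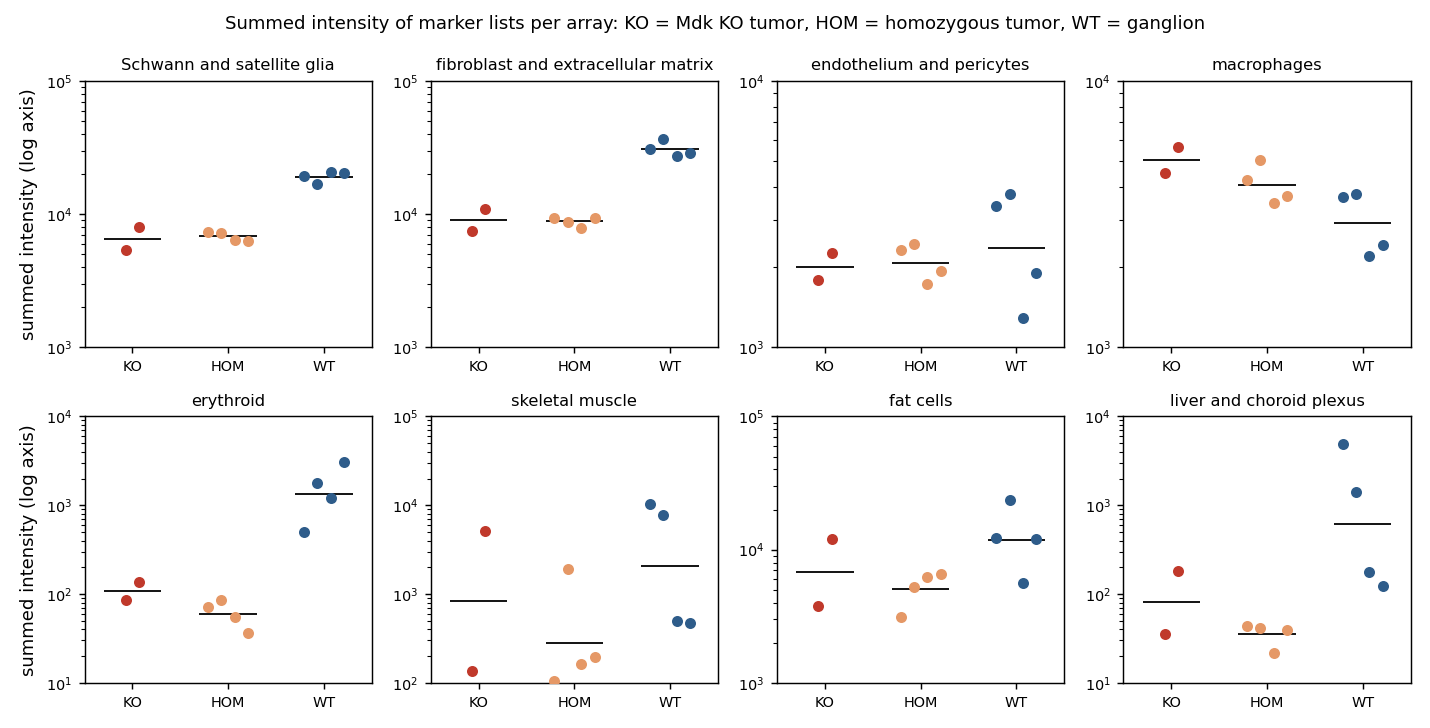
Summed intensity, on a log axis, of the members of 8 marker lists in each Mdk KO tumor, homozygous tumor (HOM) and WT ganglion array, with lines at the geometric means. Glia and matrix sums were lower in both KO tumors than in all 4 ganglia (glia 5378 and 8013 against at least 16756), whereas muscle, fat and liver sums differed within the groups.

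The remaining lists are set beside all genes tested, of which 19.2% rose and 20.4% fell. Of 16 sterol synthesis genes, 5 fell and none rose in Mdk knockout tumors, led by Fdft1 (-1.19) and Msmo1 (-1.90), enzymes of the squalene branch and of sterol demethylation. Of 24 immediate early genes, 8 fell and 3 rose: Fos read 81.8 and 67.9 in the knockout tumors, against 244, 154, 731 and 765 in the ganglia (-2.15, SE 0.61, adjusted p = 0.0098), and Dusp6, a phosphatase induced by ERK signalling, read 26.8 and 31.6 in the knockout tumors and 176, 158, 692 and 772 in the ganglia (-3.03, SE 0.65, adjusted p = 0.0012). Ganglia 3 and 4 were the highest for both. Jun, Ier2 and Ier5 rose by 0.84, 0.96 and 1.10. In the p53 and apoptosis list 4 of 19 rose and 3 fell, near the shares of all genes tested. Mdm2, the ligase that degrades p53 and is itself a p53 target, read 254 and 236 in the knockout tumors, against 104, 79.1, 36.4 and 33.7 in the ganglia (1.82, SE 0.29, adjusted p = 7.3e-05), its relative Mdm4 rose by 1.22, and the survival gene Bcl2 fell by 1.28. Cdkn1a, the p53 target p21, did not pass (147 and 270.1 in the knockout tumors and 479, 297, 252 and 353 in the ganglia). That is its brightest probe set (log2 -0.70), and a second one lay on the other side of 0 (log2 0.52), so the direction of Cdkn1a is uncertain. In the hypoxia and glycolysis list 8 of 20 fell and 2 rose. Slc2a1, a glucose transporter, and Aldoa, aldolase, fell by 1.46 and 1.31, while Pkm, pyruvate kinase, rose by 1.39 and Egln3, an oxygen-sensing hydroxylase, read 516 and 1234 in the knockout tumors, against 178, 88.2, 13.2 and 22 in the ganglia (3.57, SE 0.61, adjusted p = 0.00015).

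Mycn and Myc were read on the mouse probe sets, which may not read the transgene, so no transgene level is given. The brightest Mycn probe set read 119.7 and 166 in Mdk knockout tumors, against 323, 236, 304 and 413 in wild-type ganglia (-1.07, SE 0.34, adjusted p = 0.019). A second one went the opposite way, with 64.8 and 55.4 in the knockout tumors and 10.5, 7.33, 2.93 and 14.9 in the ganglia (log2 1.63). Myc read 11.6 and 15.8 in the knockout tumors and 38.1, 55, 42.7 and 15.7 in the ganglia and did not pass (adjusted p = 0.11).

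The tumors without Mdk were then set against the homozygous tumors directly, a comparison whose fold changes do not use the ganglion values. Its intervals and p-values rest on a spread estimated from all 20 arrays, the ganglia included. Mdk was the gene that passed, 1 of 15132 (0.00661%), and 200 genes (1.32%) had an unadjusted p under 0.05. That share lay below the 0.05 that p-values give where nothing differs, so the few calls do not show that the tumors were alike. With only the arrays of these tumor groups in the limma fit, 972 genes had an unadjusted p under 0.05 and 2 passed. With array weights in the limma fit of all arrays, 1624 genes had an unadjusted p under 0.05 and 2 passed. With 2 arrays against 4, the 95% interval of a gene's difference reached 0.55 log2 units to either side at the median. For 12328 genes (81.5%) the interval lay within 1 log2 unit on either side of 0. For the remainder, which includes Mdk, a difference of 2-fold was not excluded. The unit is that of the scale with 16 added, so a dim gene inside the bound can still differ more than 2-fold in intensity. Among the 24 genes with the largest changes against ganglia, the differences ran between -0.87 (Dner) and 0.59 (Npy), and all 24 adjusted p-values were 1.0 at this precision. These 24 were picked with the same knockout arrays, so their differences are not an independent check. The interval lay within 1 log2 unit for 14 of the 24, with 10 of the 12 highest and 4 of the 12 lowest. Insm1 (-0.49 to 0.55), Top2a (-0.65 to 0.62) and Tox3 (-0.54 to 0.54) were inside that bound. Npy (-0.55 to 1.73) and Dner (-2.13 to 0.39) were among those that reached beyond it. For Npy the knockout tumors read 93.2 and 150.2 and the homozygous tumors 78.8, 133, 42.7 and 61.1, so the 2 kinds of tumor overlapped. So they did for 22 of the 24 genes, while Dlk1 and Olfr78 were lower in both knockout tumors than in all 4 homozygous tumors.

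**Figure D4:**
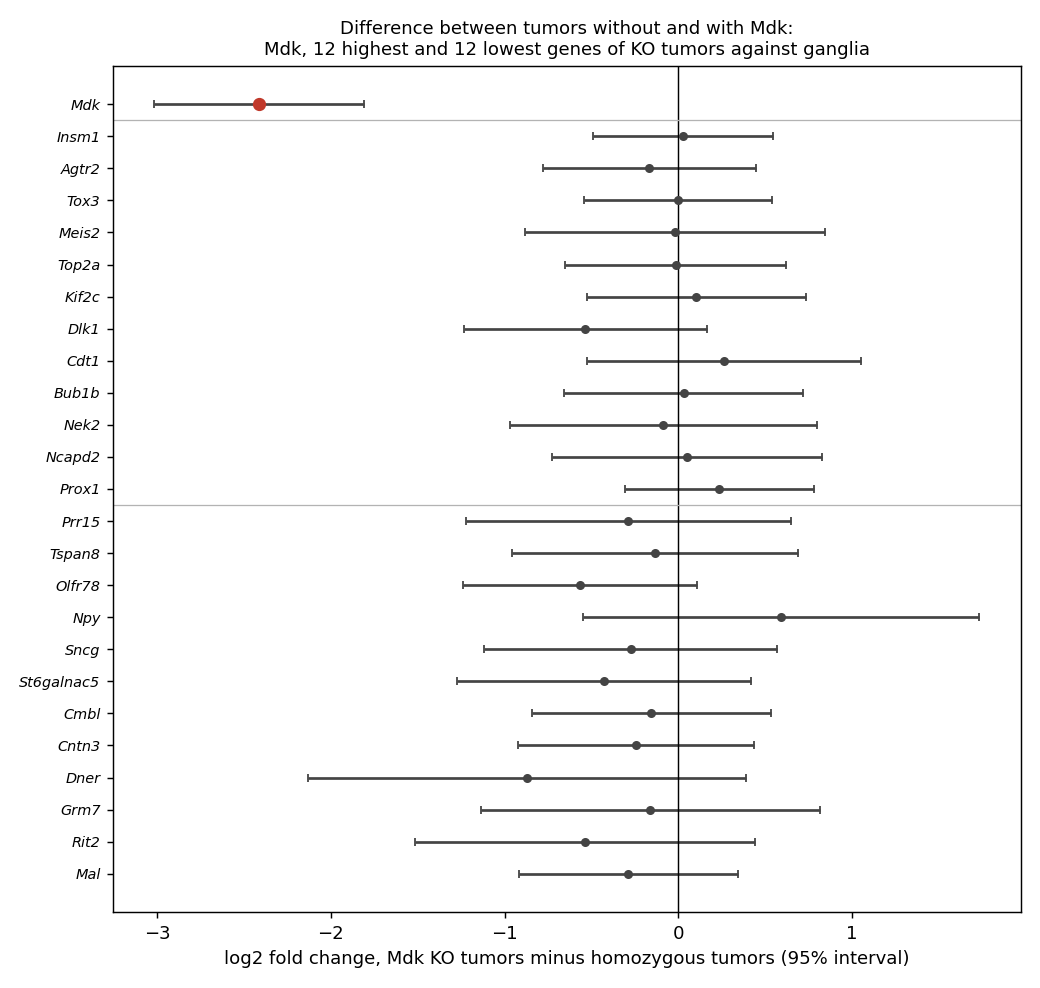
Log2 fold change of Mdk KO tumors minus homozygous tumors with its 95% interval (limma, 2 against 4 arrays, spread from all 20 arrays) for Mdk and for the 12 highest and 12 lowest genes of KO tumors against WT ganglia. Mdk lies at -2.41; the 24 other genes lie between -0.87 and 0.59 and all their intervals include 0.

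List medians of the direct difference are given for 5 lists that changed against ganglia, 2 of the lists in which most members differed in 1 direction, and muscle. Other lists also leaned 1 way. Higher without Mdk were 16 of 20 macrophage, 7 of 8 lymphocyte and 8 of 10 fat cell members. Lower without Mdk were 14 of 18 members of the midkine list and 11 of 14 oncofetal and imprinted members. Among the members of these other lists, Mdk alone passed. They were 0.11 for DNA replication, -0.01 for mitosis, 0.14 for ribosome biogenesis, 0.00 for Polycomb genes and -0.01 for noradrenergic function, where the median of all genes was 0.00. No member of these 5 lists passed in limma, and none had an unadjusted p under 0.05. For nicotinic receptors and channels the median was -0.23 and 19 of 20 members were lower without Mdk, none of them passing and 1 at an unadjusted p under 0.05, with the largest difference in Kcnab1 (log2 -0.66 with a 95% interval of -1.20 to -0.12). Kcnab1 was dim, near or below the added 16, with 2.36 and 5.90 in the knockout tumors and 14.2, 19.1, 15.1 and 14.4 in homozygous tumors. The receptor and channel list had a mean log2 intensity of 6.53 and 6.88 in the knockout tumors, against 7.06, 7.09, 6.89 and 6.76 in homozygous tumors. Knockout tumor 2 thus lay within the span of the homozygous tumors, and knockout tumor 1 lay below it. For antigen presentation and interferon genes the median difference was 0.34 and 18 of 21 members were higher without Mdk, none of them passing and 3 at an unadjusted p under 0.05. In that list 7 members did not overlap between the 2 kinds of tumor, all higher without Mdk, where 8.13% of all genes were higher without overlap. H2-Aa read 475 and 515 in the Mdk knockout tumors, against 243, 174, 198 and 273 in homozygous tumors (log2 1.12 with a 95% interval of 0.44 to 1.80, adjusted p = 1.0). Rtp4, a chaperone induced by interferon, read 63.6 and 100.008 in the knockout tumors and 11.4, 30.4, 28.7 and 33.4 in the homozygous tumors (log2 1.23 with a 95% interval of 0.50 to 1.96). For both, the 2 knockout tumors lay above all 4 homozygous tumors. Skeletal muscle markers had the highest median, 0.94, with the muscle signal in knockout tumor 2 and homozygous tumor 2, and their part in other differences was not tested.

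**Figure D5:**
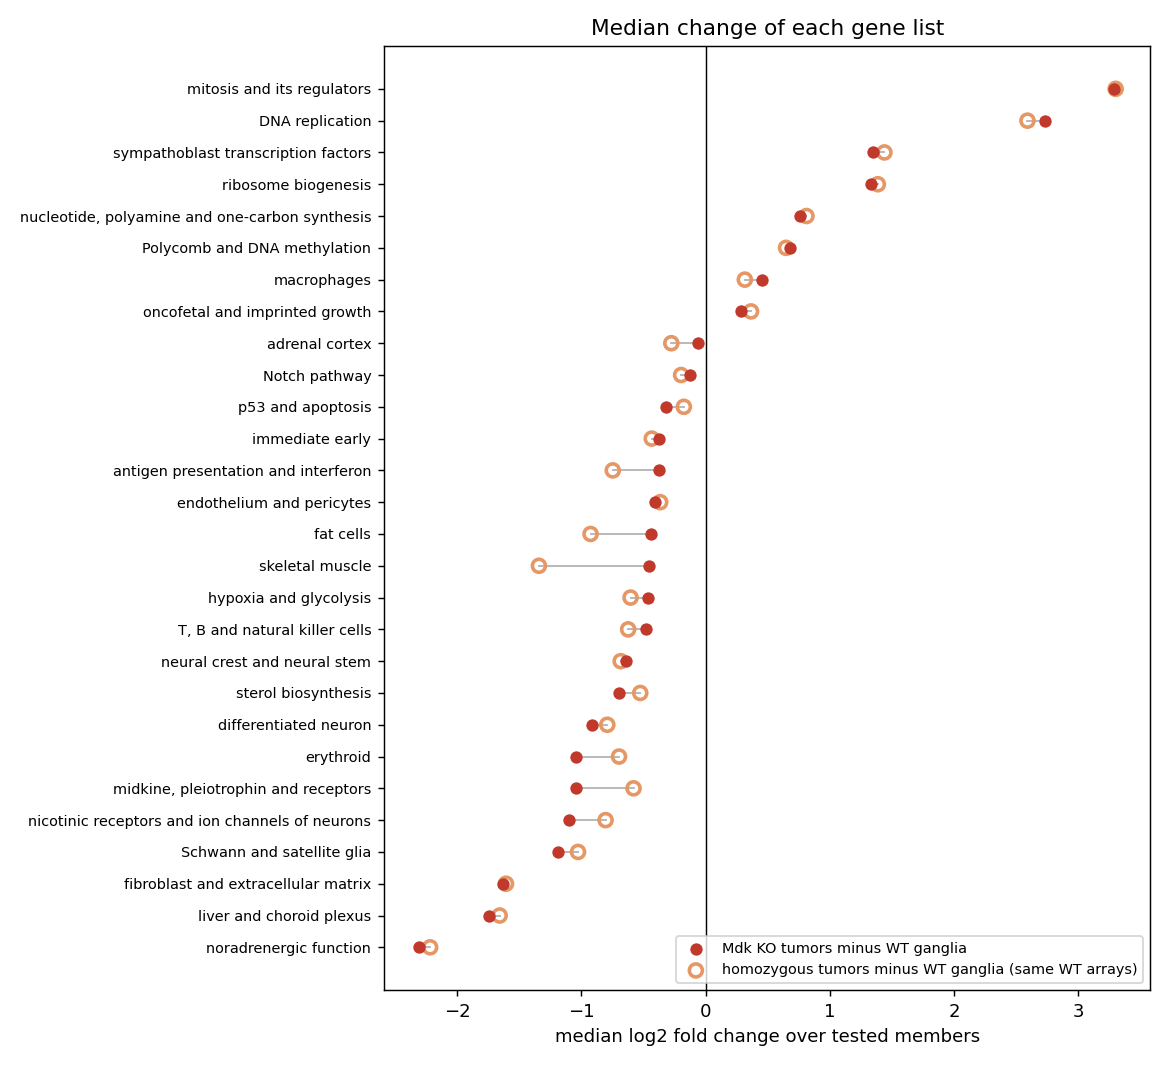
Median log2 fold change over the tested members of 28 gene lists for Mdk KO tumors minus WT ganglia (filled) and homozygous tumors minus WT ganglia (open); both use the same 4 WT arrays. The medians lie close together for mitosis (3.29 and 3.30) and noradrenergic function (-2.31 and -2.22) and farther apart for skeletal muscle (-0.45 and -1.34).

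The 10 genes with the smallest unadjusted p between the 2 kinds of tumor were Mdk, Ccdc180, Cort, Rtp4, H2-Aa, Narf, Hoxa5, Cirbp, Kcmf1 and Crlf2, and the last 9 did not pass. Ccdc180, a coiled-coil protein gene, read 12.4 and 10.4 in the Mdk knockout tumors, against 59.9, 65.1, 83.5 and 70.8 in homozygous tumors (log2 -1.64 with a 95% interval of -2.31 to -0.97, adjusted p = 0.52). The groups were well apart, and the gene passed with only the 6 compared arrays (adjusted p = 0.018) and with array weights (adjusted p = 0.014). Cort, the neuropeptide cortistatin, read 26.2 and 20.4 in the knockout tumors and 11.4, 5.85, 5.7 and 9.49 in the homozygous tumors (log2 0.71 with a 95% interval of 0.32 to 1.09). Hoxa5, a positional homeobox gene, read 62.6 and 63.3 in the knockout tumors and 97.9, 104, 162 and 163 in the homozygous tumors (log2 -0.87 with a 95% interval of -1.41 to -0.33). Cirbp, a cold-inducible RNA-binding protein, was log2 -1.14 with a 95% interval of -1.84 to -0.43, and the homozygous tumors themselves spread widely, at 75.1, 65.6, 166 and 114. The call of Mdk itself needs both knockout arrays: with tumor 1 left out its adjusted p was 0.068 and with tumor 2 left out 0.18, at log2 -2.51 and -2.32.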

How the data were processed

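RNA of 20 samples was read on 1 array each. The deposited intensities are linear values, scaled by the authors so that the trimmed mean of each array (2% off each end) is 100, as the deposited table shows; no source used here names the summarization software. The labels' protocols give the amplification and labelling only.

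The intensities were used as log2(intensity + 16), without further normalization. Of 45037 probe sets that are not controls, 34945 have 1 gene symbol, 932 several and 9160 none; symbols were updated through RefSeq gene identifiers for 34741. The brightest probe set over the 20 arrays stood for each of 18193 genes, and 15132 above the 40th percentile of an array on at least 2 arrays were tested. All 20 arrays entered 1 limma fit (limma 3.58.1, R 4.3.3) with 7 group means and 13 residual degrees of freedom, with two-sided contrasts and Benjamini-Hochberg adjustment over the 15132 genes at 0.05. Fold changes on this scale understate changes of dim genes. For 11 of the 370 examined genes with several probe sets, the probe sets moved in opposite directions by at least 0.5 log2 units.

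The compared groups follow the labels; members, 28 described gene lists and tests were chosen with earlier results of these data known. Named genes are the 12 highest and 12 lowest that passed without overlap (clone names and sex-linked genes left out), the 4 members of each list with the smallest p in each direction, the 10 smallest p between the tumor groups, Mdk, Ptn, Mycn, Myc, Alk, Ptprz1, Notch2 and Hes1, and list members given as values. List counts are described without a set test. Shared replicate numbers were not taken as pairs, since the labels do not tie them and the deviations of same-numbered arrays correlated at -0.035 and 0.11. Alternatives were other scalings, pseudocounts, filters, probe set rules, array sets, weights, replicate blocks and leaving out each array. The steps were tested on simulated data. Precision is limited by the number of arrays.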

Additional observations from a re-analysis of the deposited data

Results flagged for a closer look

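Mdk differed between tumors without and with the gene by a log2 fold change of -2.41, by a test of the difference itself. For 196 named genes, each in the 4 homozygous tumors and in the 4 wild-type ganglia, 1 array stood far from the other 3 in 22 such groups of 4; chance alone gives about 1 in 20. Among homozygous tumors, array 1 was low for Rtp4 (11.4) and high for Mdk (297), Myc (13.8), Ina (896) and Vip (243). Array 2 was high for Acta1 (437), the muscle actin, Cd68 (158) and Rbbp7 (3593), and low for Pkm (1458). Array 3 was low for Sdc1 (107) and Sox10 (8.40) and high for Slc18a2 (1162). Array 4 was high for Mcm6 (1072) and Shmt1 (239) and low for Meis2 (1007). Among wild-type ganglia, array 1 was high for Chrnb4 (638). Array 2 was low for Chgb (1045) and Kcnq3 (374) and high for Maml1 (63.0). Array 3 was low for Tspan8 (1616), and array 4 was high for Ezh2 (162) and low for Ier5 (25.5). For Ezh2 and Chrnb4 the outlying ganglion still lay on the same side of both Mdk knockout tumors as the other 3.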

How the results depend on the processing

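Of 3031 values of 152 named genes under up to 24 alternatives, 2831 kept their direction and side of the threshold, 198 kept the direction without passing and 2 reversed; the cause was not tested. The 2 were Mbp with a pseudocount of 64 (-2.88) and with the mean of its probe sets (-1.84), where other probe sets enter. The count of genes changed between Mdk knockout tumors and ganglia was 3649 with only the compared arrays and 3394 to 6415 with 1 array left out, the lowest without knockout tumor 1, where the lowest list counts also lay: 6 to 11 midkine list members fell, 18 to 31 ribosome biogenesis members rose and 9 to 22 matrix members fell with 1 array left out. Mdk passed against ganglia after quantile normalization (-0.75), with ganglia 1 and 2 alone (-0.97) and without ganglion 4 (-0.76); with 1 array left out it lay between -0.76 and -0.45. Between the tumor groups, 2 genes passed with only the compared arrays and with array weights, and 0 to 2 with 1 array left out; Mdk no longer passed without the Acta1 arrays (-2.33) or with 1 knockout array (-2.51 and -2.32). The 0 counts came with 151 and 206 genes at an unadjusted p under 0.05 (limma). With a replicate block the counts were 5231 (4 numbers) and 5570 (numbers 1 and 2 against 3 and 4) for knockout tumors against ganglia, 7439 and 7743 for homozygous tumors and 1 and 1 between the tumors. The samples share only numbers, so the pairing is not a design.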

Other observations

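The genes on either side of Mdk were read in both kinds of tumor. Of the 8 protein-coding genes on each side of Mdk in the RefSeq gene order, 14 were tested, and none passed between Mdk knockout and homozygous tumors (limma, all adjusted p = 1.0, none at an unadjusted p under 0.05). The largest difference was that of Cry2, at log2 -0.69 with a 95% interval of -1.76 to 0.38, so a 2-fold difference was not excluded for it. Ambra1, an autophagy regulator 2 genes away, read 83.6 and 78.6 in the Mdk knockout tumors, against 88.1, 87.4, 99.3 and 97.3 in homozygous tumors (log2 -0.17 with a 95% interval of -0.55 to 0.21). Dgkz, a diacylglycerol kinase that is the next gene on the other side, read 999 and 707 in the knockout tumors and 482, 785, 589 and 754 in the homozygous tumors (log2 0.38 with a 95% interval of -0.33 to 1.09). Phf21a, a member of the repressive complex of histone demethylase Kdm1a, read 161 and 106 in the knockout tumors and 132, 148, 120.5 and 115 in the homozygous tumors (log2 0.02 with a 95% interval of -0.41 to 0.46).

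Besides Mdk and Ccdc180, other genes passed between the tumor groups in single alternatives, and they are named after their values were seen. Gldc, the glycine decarboxylase of one-carbon metabolism, passed without homozygous tumor 2 (log2 2.03, adjusted p = 0.0025), and with all arrays it read 143 and 161 in the Mdk knockout tumors and 29.9, 202, 16.5 and 30.6 in the homozygous tumors. Nrip2, which encodes a nuclear receptor interacting protein, passed without the arrays with Acta1 above 100 (log2 3.09, adjusted p = 0.016), a setting that keeps only knockout tumor 1. With all arrays Nrip2 read 1408 and 164 in the knockout tumors and 239.7, 1620.2, 129 and 110.1 in the homozygous tumors, so knockout tumor 1 and homozygous tumor 2 were both high, and that setting leaves out homozygous tumor 2.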
